A study of Mus musculus with 4 samples.

Results

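DNAJ proteins, also called J-domain proteins or Hsp40s, are the co-chaperones that bring substrates to Hsp70 and trigger its ATP hydrolysis. Probe sets of mouse DNAJ genes were taken from 4 mouse 430A arrays by symbol: every probe set annotated with a single gene symbol that starts with Dnaja, Dnajb or Dnajc followed by a digit. This gave 75 probe sets for 38 genes, of 22690 probe sets on the arrays, with 10 probe sets for 4 genes of class A, 20 for 12 genes of class B and 45 for 22 genes of class C. Another 2 probe sets, which carry Dnajc19 together with its pseudogene, have 2 symbols and were left out.

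The RNA came from YAMC, a mouse colon epithelial line derived from young adult animals and immortalised conditionally. LGG cells (2 arrays) had 16 h of Lactobacillus GG conditioned medium, Lactobacillus GG being a probiotic bacterium, and untreated cells (2 arrays) had none. By their titles the arrays form 2 pairs, 1 LGG and 1 untreated array each, dated alike (date 1 and date 2 here), and what the dates mark is not given. Separate cultures are not stated, so the p-values cover only the spread between these arrays, which may be technical. With no unconditioned medium among these groups, effects of bacterial products and of the medium itself cannot be told apart.

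The Hsp70 cycle works by ATP: the J domain of a DNAJ protein, through its histidine-proline-aspartate motif, makes Hsp70 hydrolyse ATP and clamp onto a substrate, and nucleotide exchange factors then release it. Class A proteins carry a J domain, a glycine and phenylalanine rich stretch, a zinc finger and substrate binding domains. Class B proteins lack the zinc finger, and class C proteins share little but the J domain and place Hsp70 at particular sites such as ribosomes, the endoplasmic reticulum (ER), mitochondria or clathrin coats. Several cytosolic members, Dnajb1 and Dnaja1 among them, are known as heat shock genes.

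Values are linear intensities as deposited, and a change is a difference of log2(intensity + 25.2), which understates the change of dim probe sets. Probe sets with a value on all arrays and a mean of at least 101 were tested together (10333 in all) with limma in a model blocked on date, and a change passed at a Benjamini-Hochberg adjusted p under 0.05. Of the 75 DNAJ probe sets, 46 for 30 genes were tested, 7 were below the filter and 22 had no value at date 1. After trimming 2% at either end, mean intensity was 506.1 and 500.1 on the LGG arrays at dates 1 and 2, and 513.5 and 500.1 on the untreated arrays. Detection calls were not analysed here, so no bound against background can be given, and precision is limited by having 4 arrays. RNA integrity was read only indirectly, as 3' over 5' signal. For the Gapdh control probe sets this was 0.931 and 0.768 on the LGG arrays at dates 1 and 2, and 0.805 and 0.784 on the untreated arrays. For the beta-actin control probe sets it was 1.196 and 1.049 on the LGG arrays, and 1.112 and 1.081 on the untreated arrays. Both were highest on the LGG array of date 1. The part of RNA integrity in the results was not tested.

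The labelled cell type was set against its markers. Of 13 epithelial marker genes 3 passed the filter, Krt8, Krt18 and Krt19. Epcam was at most 9.0 on any array, Vil1 at most 10.5 and Cdx1 at most 5.8, so some defining markers of intestinal epithelium were near 0. Other untested ones were brighter: Cldn4 reached 109.2, Cldn7 93.5 and Lgals4 59.2. The summed intensity of those 3 keratin genes was 3159.5 and 2685.7 on the LGG arrays and 2134.0 and 3125.7 on the untreated arrays. Their fitted log2 changes had opposite signs, 0.66 for Krt18 and 0.23 for Krt8 but -0.72 for Krt19, and none passed (limma adjusted p = 0.138, 0.645 and 0.0693). Of 7 fibroblast markers 4 were tested, with sums of 14640.6 and 13122.0 on the LGG arrays and 19987.7 and 17352.6 on the untreated arrays. Dcn fell (log2 change -0.91 ± 0.13 (SE), limma adjusted p = 0.0014). Col1a1 (-0.04), Col1a2 (-0.59) and Pdgfra (-0.44) did not pass (limma adjusted p = 0.902, 0.129 and 0.290). Of those not tested, Lum was at most 88.6 and Thy1 at most 93.7. Col3a1, with values at date 2 alone, measured 6889.5 on the LGG array and 9118.0 on the untreated array. Of 7 leukocyte markers 2 were tested, Cd14 and Cd68, with sums of 509.2 and 533.7 on the LGG arrays and 387.2 and 335.5 on the untreated arrays. Cd68 rose (1.06 ± 0.27, limma adjusted p = 0.0314), whereas Cd14 did not (0.01, adjusted p = 0.989). Lyz2, not tested, was lower on the LGG arrays (98.0 and 14.7) than on the untreated arrays (116.7 and 146.9). Cd3e, also not tested, measured 88.7 and 24.7 on the LGG arrays and 20.2 and 25.1 on the untreated arrays. Ptprc was at most 37.2 on any array. The part of other cell types in the DNAJ values was not tested.

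Among the DNAJ co-chaperones, 1 probe set rose after LGG conditioned medium, 1 fell and 44 did not pass. Dnaja4, a cytosolic class A partner of Hsp70, was 2.91-fold higher in LGG cells. Dnajc30, a class C protein of the mitochondrial inner membrane, was 1.89-fold lower. The best known heat shock members, Dnajb1 and Dnaja1, passed in neither direction, and each had probe sets that disagreed in sign. At an unadjusted p under 0.05, 5 of the 46 were higher and 3 lower, against 9.6% higher and 10.9% lower among all probe sets tested. In the same fit 2.69% of all probe sets tested were higher and 3.86% were lower, 6.55% in all, so 1 of 46 in each direction is a share near the background. The median log2 change of the 46 was 0.06, against 0.01 for all probe sets tested. The intensities of the LGG arrays lay all above or all below the untreated ones for 20 of the 46 (10 of them higher), against 47% of all probe sets tested.

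Dnaja4 (GRCm38.p6, chr9:54698848-54716317) had the largest fitted change of the 46 DNAJ probe sets tested. Probe set 1418591_at measured 748.6 and 717.4 on the LGG arrays at dates 1 and 2, and 251.5 and 219.4 on the untreated arrays. The groups were far apart and the dates agreed closely: the LGG mean was 733 ± 22.1 and the untreated mean 235 ± 22.7 (SD, n = 2 each). The fitted log2 change was 1.54 ± 0.23 (SE; limma adjusted p = 0.00174), the date 1 and date 2 ratios were 1.48 and 1.60 on the log2 scale, and it also passed without the date block (adjusted p = 0.0288). Leaving out 1 array kept the change between 1.45 and 1.63, with adjusted p-values of 0.0149 and 0.0205 without LGG replicate 1 and LGG replicate 2. Without untreated replicate 1 or untreated replicate 2 they were 0.296 and 0.411, fits in which limma called 0 of 10333 probe sets (729 and 818 at an unadjusted p under 0.05). With no filter on dim probe sets its adjusted p was 0.0852. With 2 arrays a group, 0.333 is the smallest two-sided p that permuting them allows.

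The other probe sets of Dnaja4 were higher in LGG cells too. 1418592_at measured 221.2 and 275.6 on the LGG arrays and 153.4 and 84.4 on the untreated arrays, with no overlap, a log2 change of 0.96 ± 0.29 that did not pass (limma adjusted p = 0.0723). Its ratios were uneven, 0.46 at date 1 and 1.46 at date 2, with the untreated array of date 2 well below that of date 1. 1434196_at, which has values at date 2 alone, measured 364.6 on the LGG array and 77.5 on the untreated array, a log2 ratio of 1.92 with no test. All 3 probe sets of the gene thus had higher values with LGG conditioned medium at every date at which they were measured.

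Heat shock genes carry heat shock elements, inverted repeats of the unit GAA that bind heat shock factors, and ER stress genes carry the ER stress element, and so promoters were searched for them. RefSeq promoter windows of GRCm38.p6 (250 bases before to 50 after a start) were found for 31 of the 38 genes, 43 windows in all. The heat shock core, GAANNTTC or TTCNNGAA on either strand, was in 7 of the 43, which is 16.3%, against 15.1% of all 32851 windows in the table. By gene it was in 2 of 4 of class A (Dnaja1 and Dnaja4), 2 of 12 of class B (Dnajb4 and Dnajb6) and 2 of 15 of class C (Dnajc10 and Dnajc27). No window of Dnajb1, named above as a heat shock gene, held the core. The longer form with 3 units, GAANNTTCNNGAA or TTCNNGAANNTTC, which contains the core and was chosen after the windows had been seen, was in Dnajb6 alone among the members, 1 of 31 genes, against 0.662% of the 27025 genes with a window. Both windows of Dnajb6 overlap and hold the same site, which is therefore counted in each of them. By gene, the core was in 6 of 31 members, or 19.4%, against 17.0% of all genes. The ER stress element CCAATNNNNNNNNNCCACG, searched on both strands, was in the window of Dnajc3 alone among the members, against 0.119% of all windows, and the unfolded protein response element TGACGTG in 0 of 43, against 2.01% of all. A match is a description of letters and not of binding.

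The windows of Dnaja4, the gene that rose, of Dnajb6, whose probe sets moved apart, and of Dnajc3, the ER member, are shown 5' to 3' with the matches in capitals: 2 heat shock cores in Dnaja4, the form with 3 units in Dnajb6 and the ER stress element in Dnajc3. The cores of Dnaja4 begin 90 and 52 bases before the start of its printed window. The match of Dnajb6 begins 46 bases before the start of its own window and that of Dnajc3 begins 105 bases before its own. The Dnaja4 window lies inside the gene range given above, so its start is not the first base of that range. In class A 2 of 7 windows held a core.
Dnaja4 promoter window (chr9:54699309-54699608, + strand): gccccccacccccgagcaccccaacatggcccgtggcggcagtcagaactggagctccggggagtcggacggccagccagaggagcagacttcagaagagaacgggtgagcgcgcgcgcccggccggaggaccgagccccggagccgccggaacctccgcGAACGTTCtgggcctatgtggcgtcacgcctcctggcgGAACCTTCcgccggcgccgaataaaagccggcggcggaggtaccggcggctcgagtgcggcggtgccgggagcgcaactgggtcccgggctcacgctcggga
Dnajb6 promoter window (chr5:29735648-29735947, + strand): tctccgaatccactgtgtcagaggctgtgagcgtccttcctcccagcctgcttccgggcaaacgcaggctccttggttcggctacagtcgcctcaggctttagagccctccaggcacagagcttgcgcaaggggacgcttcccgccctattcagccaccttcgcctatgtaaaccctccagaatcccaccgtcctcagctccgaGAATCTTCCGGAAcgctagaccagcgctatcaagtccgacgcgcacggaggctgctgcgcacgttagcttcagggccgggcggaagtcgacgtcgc
Dnajc3 promoter window (chr14:118937682-118937981, + strand): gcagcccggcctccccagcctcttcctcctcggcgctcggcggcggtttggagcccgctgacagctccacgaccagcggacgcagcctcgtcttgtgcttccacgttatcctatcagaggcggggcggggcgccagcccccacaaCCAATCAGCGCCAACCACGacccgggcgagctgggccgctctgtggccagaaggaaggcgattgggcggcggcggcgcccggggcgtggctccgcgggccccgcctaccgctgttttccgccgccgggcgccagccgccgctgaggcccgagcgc

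**Figure D1:**
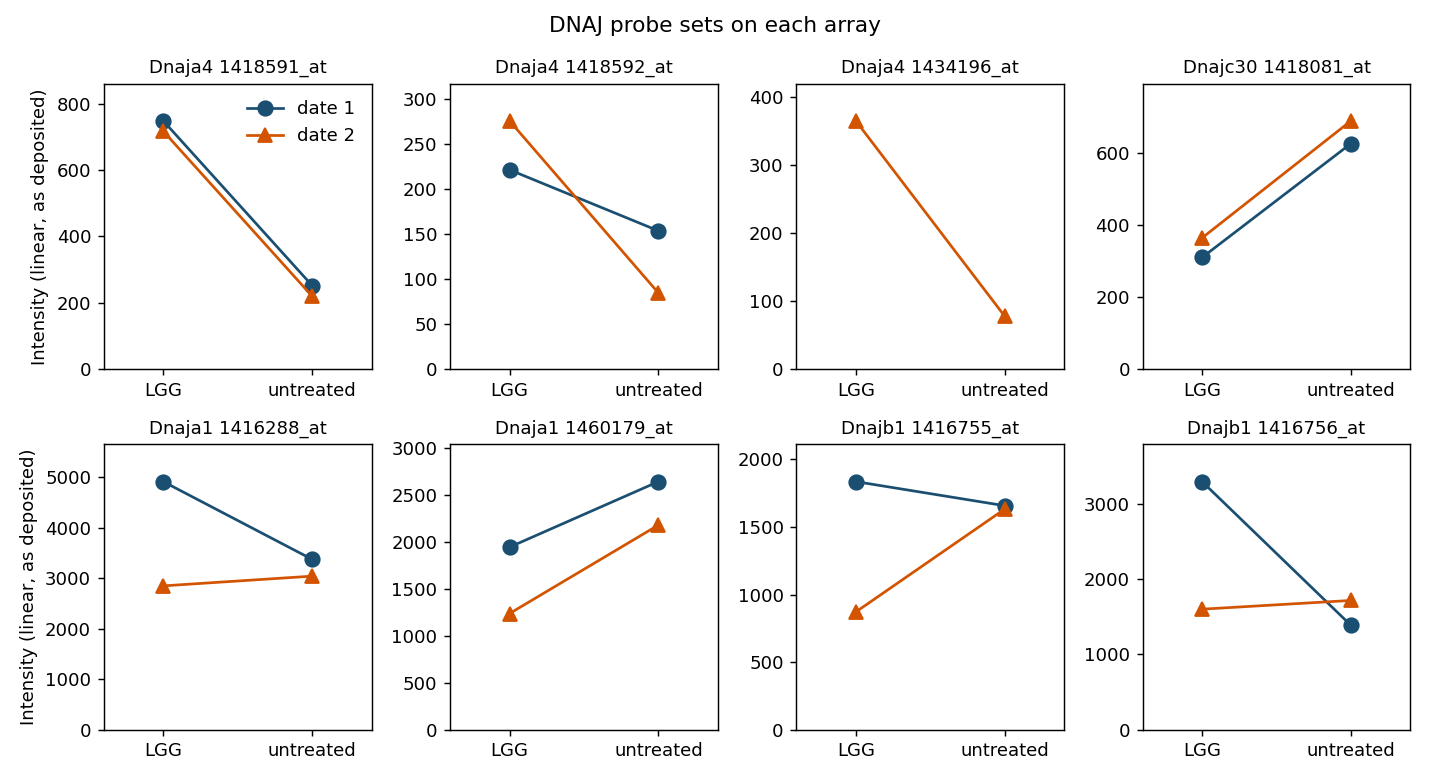
Linear intensity on each array (vertical axes start at 0) for the probe sets of Dnaja4, Dnajc30, Dnaja1 and Dnajb1, LGG left and untreated right, with a line joining the arrays of 1 date (circles date 1, triangles date 2). The Dnaja4 lines fall from left to right at each date and the Dnajc30 lines climb, while the Dnajb1 and Dnaja1 panels differ between dates and between probe sets.

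The rest of class A held the housekeeping cytosolic proteins Dnaja1 and Dnaja2 and the mitochondrial Dnaja3. Dnaja1, a farnesylated partner of the cytosolic Hsp70s, had 1 probe set of each sign. 1416288_at measured 4916.2 and 2849.7 on the LGG arrays and 3375.1 and 3042.4 on the untreated arrays, overlapping groups with a log2 change of 0.22 (limma adjusted p = 0.529). 1460179_at measured 1946.8 and 1238.6 on the LGG arrays and 2646.1 and 2182.4 on the untreated arrays, lower without overlap, and its log2 change of -0.62 ± 0.19 did not pass (adjusted p = 0.0664). Both Dnaja1 probe sets were dimmer on the LGG array of date 2 than on that of date 1. Without LGG replicate 1 the change of 1460179_at was -0.94 and that of 1416288_at was -0.17. Without LGG replicate 2 they were -0.30 and 0.61.

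Dnaja3, also called Tid1, serves the mitochondrial Hsp70 Hspa9. Its probe set 1449935_a_at measured 498.8 and 690.8 on the LGG arrays and 315.5 and 436.4 on the untreated arrays, higher at each date (log2 ratios 0.62 and 0.63), but did not pass (log2 change 0.63 ± 0.23, limma adjusted p = 0.135). Its other tested probe set, 1420629_a_at, measured 202.4 and 404.6 on the LGG arrays and 254.8 and 247.1 on the untreated arrays, and the groups overlapped (0.18, adjusted p = 0.778). Another probe set, 1432066_at, was dim and had values of 15.2 on the LGG array and 32.9 on the untreated array of date 2. Dnaja2, the close relative of Dnaja1, differed by little in either direction. 1417182_at measured 872.3 and 994.5 on the LGG arrays and 809.2 and 816.3 on the untreated arrays (0.19, adjusted p = 0.676), and 1417183_at measured 1631.1 and 1627.4 on the LGG arrays and 1969.5 and 1750.0 on the untreated arrays (-0.19, adjusted p = 0.635). In class A, 1 of 8 probe sets rose (2.69% of all probe sets tested did) and 0 fell (3.86% of all). At an unadjusted p under 0.05, 3 were higher and 1 lower (9.6% and 10.9% of all). Of those 3, 2 were the tested probe sets of Dnaja4 and 1 was Dnaja3 1449935_a_at. The median log2 change was 0.21, or 0.28 at date 1 and 0.46 at date 2, against -0.04 and 0.05 for all probe sets tested.

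In class B, 0 of 11 tested probe sets for 9 genes rose and 0 fell by limma (2.69% and 3.86% of all probe sets tested). At an unadjusted p under 0.05, 2 were higher and 1 lower (9.6% and 10.9% of all probe sets tested). The median log2 change was 0.01, or 0.15 at date 1 and -0.10 at date 2, against -0.04 and 0.05 for all. Dnajb1 is the classical heat inducible Hsp40 of cytosol and nucleus, and its LGG arrays differed from each other far more than its untreated arrays did. Its probe set 1416756_at measured 3292.0 and 1598.9 on the LGG arrays and 1383.9 and 1714.8 on the untreated arrays. This is 2.35-fold higher at date 1 and a log2 ratio of -0.10 at date 2, with a fitted log2 change of 0.57 ± 0.26 (limma adjusted p = 0.229). The second probe set, 1416755_at, measured 1835.8 and 870.9 on the LGG arrays and 1657.4 and 1632.2 on the untreated arrays. Its log2 ratios were 0.15 at date 1 and -0.89 at date 2, with a fitted change of -0.37 ± 0.24 (adjusted p = 0.422).

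Both Dnajb1 probe sets thus had roughly the same step between the LGG arrays, a log2 difference of date 2 minus date 1 of -1.03 and -1.05, while the untreated arrays differed by 0.30 and -0.02. Without LGG replicate 2 the change of 1416756_at was 1.08 and that of 1416755_at was 0.16. Without LGG replicate 1 they were 0.05 and -0.90. Both Dnajb1 probe sets were thus higher in LGG cells at date 1 and lower at date 2, and only the sign of the fit over both dates differed between them. The inducible Hsp70 genes were higher at both dates in the same arrays: Hspa1b measured 8616.6 and 3165.6 on the LGG arrays and 266.9 and 266.8 on the untreated arrays, and Hspa1a 1768.7 and 390.0 on the LGG arrays and 27.5 and 29.3 on the untreated arrays. Hspa1a and Hspa1b are nearly identical, so their signals cannot be fully parted.

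Dnajb2, an anti-aggregation co-chaperone best known in neurons, had the largest positive fitted change among the tested probe sets of class B. It measured 692.1 and 738.9 on the LGG arrays and 551.4 and 355.6 on the untreated arrays, higher without overlap, but the untreated arrays differed and the log2 change of 0.66 ± 0.24 did not pass (limma adjusted p = 0.137). Dnajb5, a cytosolic relative of Dnajb1, lay at the other end. Its probe set 1421962_at measured 167.2 and 87.4 on the LGG arrays and 287.5 and 173.0 on the untreated arrays, lower at each date (log2 ratios -0.70 and -0.82), a log2 change of -0.76 ± 0.26 that did not pass (adjusted p = 0.113). 1450436_s_at measured 188.2 and 161.0 on the LGG arrays and 229.3 and 215.2 on the untreated arrays (-0.31, adjusted p = 0.548), and 1421961_a_at, below the filter, measured 144.5 and 81.9 on the LGG arrays and 61.9 and 83.1 on the untreated arrays.

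Dnajb6, which keeps polyglutamine proteins from aggregating, has 4 probe sets that did not move together. The tested one, 1448234_at, measured 2245.8 and 2113.3 on the LGG arrays and 2714.6 and 2792.7 on the untreated arrays, lower without overlap and short of the threshold (log2 change -0.33 ± 0.17, limma adjusted p = 0.290). The other 3 have values at date 2 alone. At that date 1429777_at measured 495.8 on the LGG array and 102.5 on the untreated array, 1434035_at measured 1343.9 and 796.2, and 1429776_a_at measured 862.2 and 812.8, in the same order of groups. The log2 ratios at date 2 were thus 2.03, 0.74 and 0.08, against -0.40 for the tested probe set at the same date. Which transcripts of Dnajb6 each probe set reads is not given in the files.

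None of the remaining class B genes passed. The groups of Dnajb8 and Dnajb4 did not overlap, as was the case for 47% of all probe sets tested. Dnajb8, known mainly from testis, measured 119.1 and 148.7 on the LGG arrays and 76.2 and 90.1 on the untreated arrays, dim values near the filter (log2 change 0.55 ± 0.28, limma adjusted p = 0.291). Dnajb4, a relative of Dnajb1, measured 929.5 and 762.2 on the LGG arrays and 607.4 and 732.5 on the untreated arrays (0.32, adjusted p = 0.467). Dnajb9 and Dnajb11 are the ER members that the unfolded protein response induces as partners of the ER Hsp70 Hspa5. Dnajb9 measured 884.2 and 707.1 on the LGG arrays and 780.1 and 795.2 on the untreated arrays (0.01 ± 0.22, adjusted p = 0.993). Dnajb11 measured 1230.9 and 1261.6 on the LGG arrays and 1564.6 and 1117.5 on the untreated arrays (-0.08 ± 0.21, adjusted p = 0.873). Dnajb12, an ER membrane protein, measured 96.0 and 178.8 on the LGG arrays and 152.6 and 94.3 on the untreated arrays, opposite at the dates (0.11, adjusted p = 0.897).

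**Figure D2:**
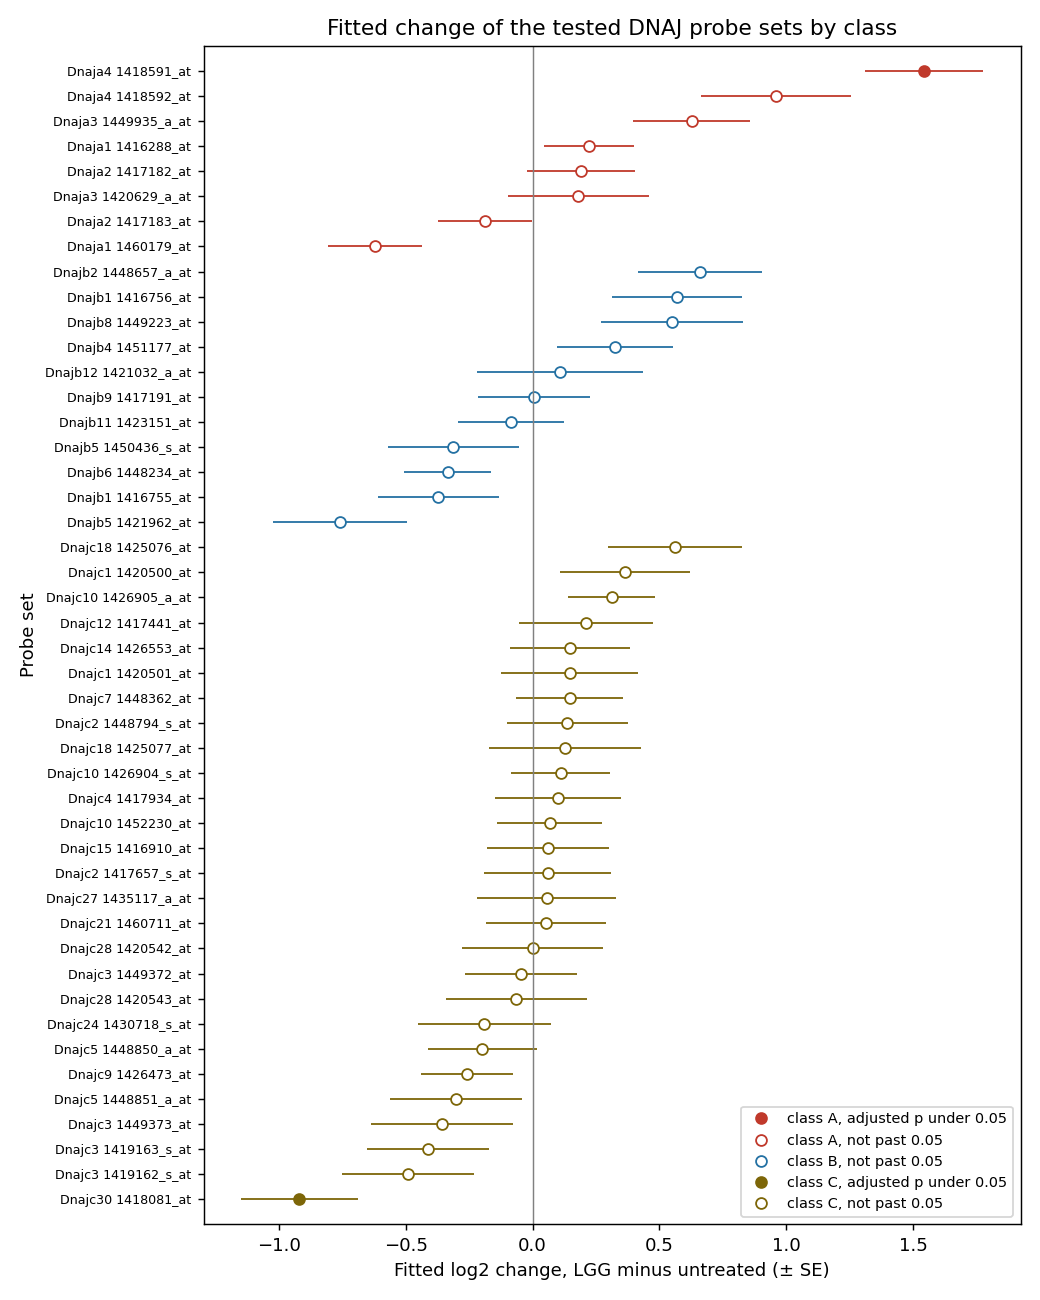
Fitted log2 change, LGG minus untreated, on the horizontal axis with its SE as a bar, for the 46 tested DNAJ probe sets in classes A, B and C. Filled points passed an adjusted p of 0.05, which were Dnaja4 1418591_at (1.54) and Dnajc30 1418081_at (-0.92); open points did not.

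Class C was the narrowest: the SD of its fitted log2 changes was 0.30, against 0.67 in class A, 0.46 in class B and 0.46 over all probe sets tested. Of its 27 probe sets for 17 genes, 0 rose by limma (2.69% of all probe sets tested did) and 1 fell (3.86% of all). At an unadjusted p under 0.05, 0 were higher and 1 lower (9.6% and 10.9% of all). The median log2 change was 0.06, or -0.07 at date 1 and 0.02 at date 2, against -0.04 and 0.05 for all probe sets tested. Dnajc30, which sits with the ATP synthase in the mitochondrial inner membrane and in human cells takes part in the repair of respiratory complex I, was the member that fell (GRCm38.p6, chr5:135064206-135065365). It measured 309.7 and 364.1 on the LGG arrays and 626.4 and 689.5 on the untreated arrays, groups that did not overlap, with means of 337 ± 38.5 and 658 ± 44.6 (SD, n = 2 each). The log2 change was -0.92 ± 0.23 (limma adjusted p = 0.0302), and the date 1 and date 2 ratios were -0.96 and -0.88 on the log2 scale. Leaving out 1 array kept the value between -1.03 and -0.81, but the call was lost in each of these fits: adjusted p = 0.0718 without LGG replicate 1, 0.0527 without LGG replicate 2, 0.613 without untreated replicate 1 and 0.615 without untreated replicate 2. It was also lost without the date block (adjusted p = 0.105), without the intensity trend (0.0528) and with no filter (0.154).

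Dnajc18 and Dnajc3, both of the ER, held the next largest changes of class C. Dnajc18, an ER membrane protein, measured 343.5 and 658.9 on the LGG arrays and 316.5 and 313.9 on the untreated arrays at 1425076_at. The difference was seen mainly at date 2 (log2 ratios 0.11 and 1.01) and did not pass (log2 change 0.56 ± 0.27, limma adjusted p = 0.251). The change of 1425076_at was 1.01 without LGG replicate 1 and 0.12 without LGG replicate 2. Its second probe set, 1425077_at, measured 114.1 and 191.5 on the LGG arrays and 152.9 and 116.7 on the untreated arrays (0.13, adjusted p = 0.865).

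Dnajc3, also called P58IPK, is an ER co-chaperone of Hspa5 induced in the unfolded protein response. Its 4 tested probe sets had fitted log2 changes from -0.49 to -0.04, and none passed. 1419162_s_at measured 185.6 and 241.1 on the LGG arrays and 339.4 and 278.8 on the untreated arrays (-0.49 ± 0.26, limma adjusted p = 0.315), and 1419163_s_at measured 382.2 and 566.4 on the LGG arrays and 648.4 and 608.7 on the untreated arrays (-0.41, adjusted p = 0.371). 1449373_at measured 90.9 and 90.0 on the LGG arrays and 122.1 and 123.6 on the untreated arrays (-0.36, adjusted p = 0.524), and 1449372_at measured 697.7 and 565.9 on the LGG arrays and 733.2 and 574.1 on the untreated arrays (-0.04, adjusted p = 0.943). The fifth probe set, 1433887_at, measured 766.9 on the LGG array and 1171.9 on the untreated array of date 2. All 5 probe sets had lower values in LGG cells at each date measured. The 4 tested ones did not pass, and 1433887_at was not tested. The change of 1449372_at ranged from -0.21 to 0.13 when 1 array was left out. The ER Hsp70 Hspa5 rose (16487.4 and 14637.2 on the LGG arrays, 11640.4 and 9909.9 on the untreated arrays, log2 change 0.53 ± 0.10, limma adjusted p = 0.00883).

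The other class C members had smaller fitted changes over both dates. Dnajc28 measured 114.4 and 118.6 on the LGG arrays and 123.6 and 109.5 on the untreated arrays at 1420542_at (limma log2 change 0.00, adjusted p = 0.998), and 106.8 and 138.9 on the LGG arrays and 131.4 and 125.8 on the untreated arrays at 1420543_at (-0.06, adjusted p = 0.934). Dnajc10, an ER disulfide reductase also called ERdj5, had 3 probe sets with changes from 0.07 to 0.31. Dnajc1, an ER membrane protein that binds ribosomes, had 2 with changes of 0.15 and 0.36, and Dnajc2, the ribosome bound partner of Hspa14 called zuotin in yeast, had 2 with changes of 0.06 and 0.14. Dnajc5, the cysteine string protein of secretory vesicles, had 2 with changes of -0.30 and -0.20. Dnajc9, which escorts histones, had a change of -0.26, the Hsp90 and Hsp70 adaptor Dnajc7 0.15, the ribosome biogenesis factor Dnajc21 0.05 and the diphthamide synthesis factor Dnajc24 -0.19. Dnajc14 (0.15), Dnajc15 of the mitochondrial inner membrane (0.06), Dnajc12 (0.21), Dnajc4 (0.10) and Dnajc27 (0.06) lay in the same range, and none of these passed. Some fitted changes average unlike dates. The log2 ratios at dates 1 and 2 were -0.27 and 0.56 for Dnajc14 and 0.51 and -0.39 for Dnajc2 1417657_s_at. They were -0.69 and 0.09 for Dnajc5 1448851_a_at, and 0.71 and 0.02 for Dnajc1 1420500_at.

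Agreement in sign between the dates was near that of all probe sets tested. Of the 46 probe sets, 15 had a positive and 13 a negative log2 ratio at both dates, 9 were positive at date 1 and negative at date 2, and 9 the reverse, so that 60.9% had the same sign, against 64.1% of all probe sets tested. By compartment, the 20 probe sets of cytosolic and nuclear members had a median log2 ratio of 0.13 at date 1 and -0.09 at date 2, and the 15 of ER members had -0.14 at date 1 and 0.12 at date 2. The 6 of mitochondrial members had -0.17 at date 1 and 0.11 at date 2. Over all probe sets tested the medians were -0.04 at date 1 and 0.05 at date 2, so the ER and mitochondrial medians differed between dates in the same direction as that of the whole array. The cytosolic members that were higher in LGG cells at date 1 and lower at date 2 were 1 probe set each of Dnaja1 and Dnajc7 and 2 each of Dnajb1 and Dnajc2. At least 2-fold higher at date 1 were 2 of the 46 (Dnaja4 and Dnajb1; 2.19% of all probe sets tested), and at date 2 4 of the 46 (both tested probe sets of Dnaja4, Dnajb2 and Dnajc18; 2.85% of all). With the pseudocount of 25.2 added, as in all these ratios, at least 2-fold lower were 0 of the 46 at either date (Dnajc30 at date 1, at a log2 ratio of -0.96, passes 2-fold on the intensities alone), against 3.26% of all at date 1 and 3.47% at date 2. With 1 array per group at a date, the difference between the dates could not be tested.

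**Figure D3:**
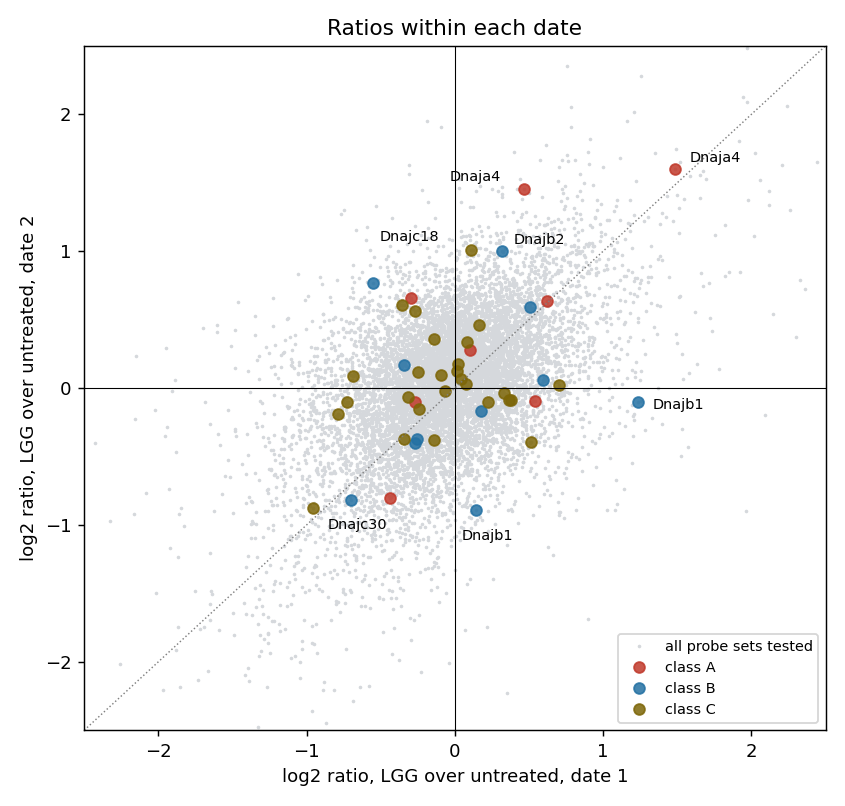
Log2 ratio of LGG over untreated at date 1 (horizontal) and date 2 (vertical) for the 46 tested DNAJ probe sets, coloured by class, over all probe sets tested in grey (grey points beyond the axes are not drawn); the dotted line marks equal ratios. Dnaja4 1418591_at lies near that line at 1.48 and 1.60, Dnajc30 at -0.96 and -0.88, and the Dnajb1 probe sets lie at 1.24 and -0.10 and at 0.15 and -0.89.

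At date 1 22 DNAJ probe sets had no value, 2 of class A, 6 of class B and 14 of class C, and 16 of them had a mean of at least 101 at date 2. Of these 16, 9 were higher and 7 lower in LGG cells, with a median log2 ratio of 0.08, against 0.02 for the 3675 such probe sets of the whole table. At least 2-fold higher were 2 of the 16, Dnaja4 1434196_at and Dnajb6 1429777_at, against 2.29% of all 3675, and 0 were 2-fold lower, against 4.03%, counts from 1 array a group with no test. The spliceosomal Dnajc8, with no other probe set, measured 4402.9 on the LGG array and 4004.3 on the untreated array. The endosomal Dnajc13 measured 970.2 on the LGG array and 1068.8 on the untreated array. Dnajc11, a protein of the mitochondrial cristae complex, measured 289.1 on the LGG array and 393.5 on the untreated array at 1433880_at, and 99.7 and 131.0 at 1433881_at in the same order. Dnajb4 1431734_a_at measured 426.5 on the LGG array and 254.8 on the untreated array, a larger ratio than its tested probe set showed at that date (log2 ratios 0.69 and 0.06).

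**Figure D4:**
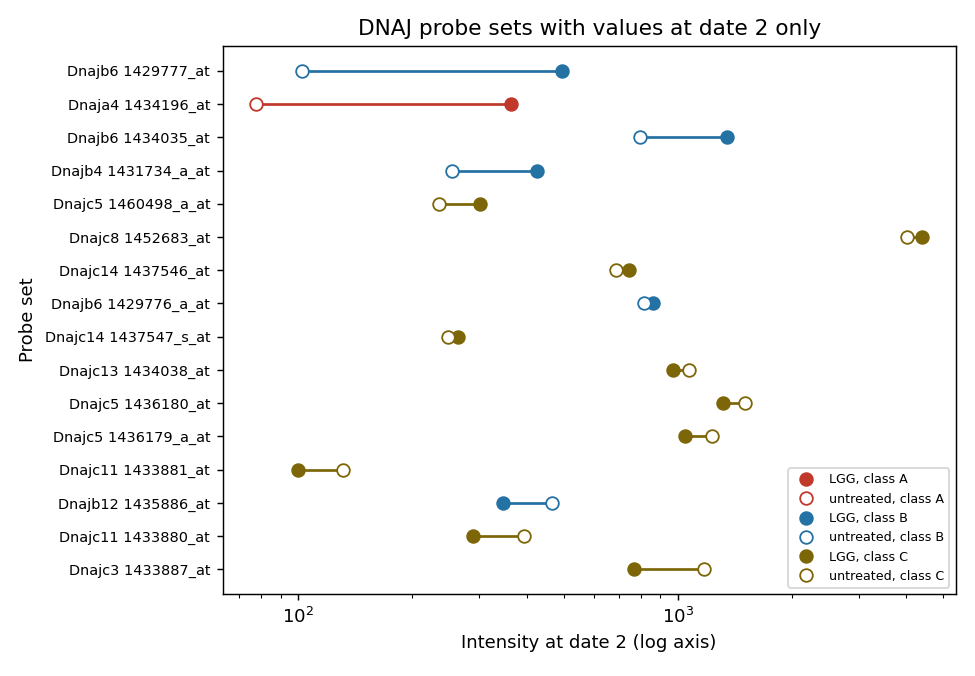
Intensity at date 2 (log axis) of the 16 DNAJ probe sets with no value at date 1 and a mean of at least 101 at date 2, with filled points for the LGG array and open points for the untreated array, coloured by class. The widest gaps are those of Dnajb6 1429777_at (495.8 and 102.5) and Dnaja4 1434196_at (364.6 and 77.5).

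The 7 probe sets below the filter belonged to Dnajb3, Dnajb7 and Dnajb5 of class B and to Dnajc2, Dnajc5b, Dnajc17 and Dnajc24 of class C, with intensities from 2.2 to 144.5. The dim Dnajb3 and Dnajb7 measured at most 26.8 and 42.6 on any array. Dnajb13, a protein of sperm and cilia, measured 50.3 on the LGG array and 12.6 on the untreated array of date 2.

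The partners of the DNAJ proteins were taken from lists, each gene by its brightest probe set. Of 11 Hsp70 and Hsp110 genes tested, 6 rose (2.69% of all probe sets tested did) and 0 fell (3.86% of all). Their median log2 change was 0.53. Beside Hspa1b (4.17), Hspa1a (4.01) and Hspa5 these were the Hsp110 gene Hsph1 (7401.7 and 3571.2 on the LGG arrays, 2326.9 and 1985.3 on the untreated arrays, 1.25 ± 0.19), Hspa4l (1.62 ± 0.24) and Hspa4 (0.71 ± 0.18). The constitutive Hspa8 measured 9675.1 and 7765.7 on the LGG arrays and 8173.3 and 7891.5 on the untreated arrays (0.11, limma adjusted p = 0.682). The mitochondrial Hspa9 measured 3845.3 and 3094.4 on the LGG arrays and 2285.4 and 2535.6 on the untreated arrays (0.51 ± 0.17, adjusted p = 0.103).

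Of 9 nucleotide exchange factors tested, 0 rose and 0 fell by limma (2 higher and 0 lower at an unadjusted p under 0.05, against 9.6% and 10.9% of all probe sets tested), with a median of 0.30 and changes of 0.51 for Bag3, 0.49 for the mitochondrial Grpel1 and -0.25 for Bag6. Of 10 other co-chaperones, such as the Hsp70 and Hsp90 adaptor Stip1 (0.23) and the ubiquitin ligase Stub1 (-0.23), 0 passed (0 at an unadjusted p under 0.05), with a median of 0.17. J-domain proteins outside the DNAJ names were Sec63 of the ER translocon (-0.13) and the clathrin uncoating kinase Gak (0.16), neither of which passed, and of the heat shock factor list Hsbp1 alone was tested (-0.10, limma adjusted p = 0.789). The same fit thus called 6 of 11 Hsp70 and Hsp110 genes and 2 of 46 DNAJ probe sets, against 6.55% of all probe sets tested. The units differ, with 1 brightest probe set per Hsp70 or Hsp110 gene but every tested probe set of 30 DNAJ genes. Hspa1a and Hspa1b, whose signals cannot be fully parted, count as 2 of the 6. The lists were chosen with earlier results of these data known, and the difference was not tested.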

How the data were processed

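Total RNA of YAMC cells was profiled on 4 mouse 430A arrays, 2 LGG and 2 untreated. The authors deposited linear intensity values, 1 column per array. Their software, scaling and filters are not stated in the labels. The 4 trimmed means lay within 500.1 to 513.5, so the values were used as deposited. Of the 22690 probe sets, 6307 lacked a value on the date 1 arrays. After 64 control probe sets were set aside, 16319 had values on all arrays.

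From 504.9, the geometric mean trimmed mean, came the pseudocount, 25.2 (5%), and the filter, a mean of at least 101 (20%), which left 10333 probe sets. The model, in limma 3.58.1 under R 4.3.3, held group plus date as a block (lmFit), with trended eBayes moderation, two-sided p-values adjusted by Benjamini-Hochberg over the whole set of 10333, threshold 0.05, with 1 residual and 12.5 prior degrees of freedom. A gene's p-value and SE thus rest mostly on variance shared across genes. Groups and dates came from the array titles; the dates pair the arrays, and across probe sets, date 2 minus date 1 differences in LGG and untreated cells had a correlation of 0.27. Figures used matplotlib 3.10.9.

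Gene names came from the platform annotation, and all 75 DNAJ probe sets matched RefSeq by Entrez identifier, with 0 symbols changed. The members and lists were chosen with earlier results of these data known. Named with values were the probe sets that passed, in each class up to 4 with the largest and 2 with the smallest change, all probe sets of those genes, and members at least 2-fold different at date 2 with no value at date 1; the other tested class C genes have their fitted changes alone, and Dnajb4, Dnajb12, Dnajc8, Dnajc11, Dnajc13 and the testis genes were added after their values were seen. Of the partner lists, members that passed were named, with Hspa1a, Hspa1b, Hspa8, Hspa5 and Hspa9; other list genes were chosen after their values were seen. Alternatives were other scalings, pseudocounts, filters, no intensity trend, no date block and leaving out each array without the block. No protein sequences were used here.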

Additional observations from a re-analysis of the deposited data

Results flagged for a closer look

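Among the probe sets that had no value at date 1 and so stood outside the comparison, 2 had a signal on the LGG array of date 2 well above that of the untreated array of the same date. Dnaja4 1434196_at had a log2 ratio of 1.92 (364.6 on the LGG array and 77.5 on the untreated array). Dnajb6 1429777_at had a log2 ratio of 2.03 (495.8 on the LGG array and 102.5 on the untreated array). Each rests on 1 array per group and was not tested.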

How the results depend on the processing

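Under the 12 alternatives, the 26 tested probe sets named by rule kept direction and side of the threshold in 277 cases, lost a call in 10, gained one in 4 and turned sign in 13, and the cause was not tested. All 10 lost calls fell on Dnaja4 1418591_at and Dnajc30 1418081_at, the only 2 probe sets with a call to lose. For the other named probe sets, keeping the side of the threshold meant staying without a call. All sign changes came from leaving out an array. The call of Dnaja4 1418591_at, but not its size (log2 changes of 1.54, 1.63 and 1.45), was lost with no filter on dim probe sets and without untreated replicate 1 or 2, and it was the sole DNAJ call without the replicate block and without the intensity trend. The date pairs the arrays; without the replicate block 39 probe sets were higher and 58 lower, all 97 among the 677 called with it, against 278 and 399, and 1 DNAJ probe set was higher and 0 lower (6 of 46 at an unadjusted p under 0.05). With no filter limma called 0 of 16319 in either direction (2296 at an unadjusted p under 0.05), so 0 DNAJ probe sets were called (7 at an unadjusted p under 0.05). Without the intensity trend 164 were higher, 214 lower and 0 DNAJ probe sets lower (8 in either direction at an unadjusted p under 0.05), and with median scaling 250 were lower. Leaving out 1 array, fitted without the date and with the lone array assumed to vary like the other group, gave 0 to 268 higher and 0 to 370 lower over all probe sets, and 0 to 2 higher and 0 to 2 lower among DNAJ probe sets. The class medians then ranged from 0.18 to 0.46 in class A, from -0.18 to 0.16 in class B and from -0.0357 to 0.0624 in class C. The log2 changes that turned sign ranged from -0.17 to 0.61 for Dnaja1 1416288_at, -0.28 to 0.64 for Dnaja3 1420629_a_at, -0.90 to 0.16 for Dnajb1 1416755_at, -0.15 to 0.16 for Dnajb9, -0.32 to 0.15 for Dnajb11, -0.21 to 0.13 for Dnajc3 1449372_at, -0.19 to 0.45 for Dnajc18 1425077_at, -0.0707 to 0.0729 for Dnajc28 1420542_at and -0.22 to 0.0937 for Dnajc28 1420543_at. None of these 9 passed with all arrays. The number of arrays, and the lack of detection calls for dim probe sets, limit these results.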
